A study of Mus musculus with 6 samples.

Results

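The genes described here are 35 that endothelial cells of blood vessels express or are recognised by, chosen by name. Of these, 33 had at least 1 probe set (a group of short probes that together read 1 transcript) assigned to that gene alone, out of 18193 genes so named on the array. Ly6c1 and Ly6a had none and carry no values here. The question is how these genes differ between young and aged choroid plexus. The samples were 6 male mice of the outbred CD1 stock with no further treatment or allele named, 3 aged 18 months (aged) and 3 aged 2 months (young). Each array (Affymetrix, 45101 probe sets) held RNA from the whole plexus of both lateral ventricles of 1 mouse, so vessels were measured together with epithelium, stroma, immune cells and any attached brain tissue. In such tissue, fewer endothelial cells and less RNA per cell cannot be told apart.

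The choroid plexus is a fold of epithelium around a core of wide capillaries, and it secretes cerebrospinal fluid. Its capillaries are fenestrated: their walls hold pores closed by diaphragms of the protein that Plvap encodes, and signalling through VEGF receptors maintains them. Capillaries of the brain itself lack such pores and are sealed by tight junctions built on claudin-5, the product of Cldn5, so that the blood barrier of the plexus lies in its epithelium instead. Adhesion molecules of the Icam, Vcam and selectin kind let leukocytes attach to vessel walls, and those of Icam1 and Vcam1 are also known from plexus epithelium.

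No endothelial gene passed the test between ages. By limma, a linear model with a spread shared between genes, 0 of 21 testable members were higher and 0 lower at 18 months at an adjusted p under 0.05. Over all 12681 genes tested, 0% passed. An unadjusted p under 0.05 was reached by 1 member that was higher and by 0 that were lower, beside 4.02% of all genes that were higher and 3.03% lower (7.05% in all). An ordinary linear model called 0 members at either threshold. The 3 mice of each age lay in separate ranges for 1 member that was higher, Ramp2, and for 0 that were lower, beside 7.06% and 6.25% of all genes. Differences are given throughout as log2 intensity at 18 months minus 2 months, where 1 is a doubling. The median over the 21 members was 0.22 and 15 of them lay above 0, beside a median of 0.0032 over all genes tested, of which 50.4% lay above 0 and 49.6% below. For 13 of the 21 the difference was smaller than the spread between mice of 1 age (pooled SD).

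Many of these genes gave little signal. A gene was tested if its brightest probe set reached a mean log2 intensity of 4.92, the 40th percentile of the array. Of the 33 members, 12 did not, and 6 of those also lay at or under 4.51, the highest of 27 control probe sets for bacterial transcripts that serve as a gauge of background. The median and the count of differences above 0 leave those 12 out. Their differences ran both ways, from -0.99 for Clec14a to 0.71 for Tek. Vwf and Calcrl passed the filter although their 2-month means, 4.77 and 4.81, lay under it. Icam2 passed although its 18-month mean, 4.85, lay under it. Among markers that define endothelium, Pecam1, Cdh5 and Kdr were above the filter and the receptor kinase genes Tek and Tie1 were below it.

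**Figure D1:**
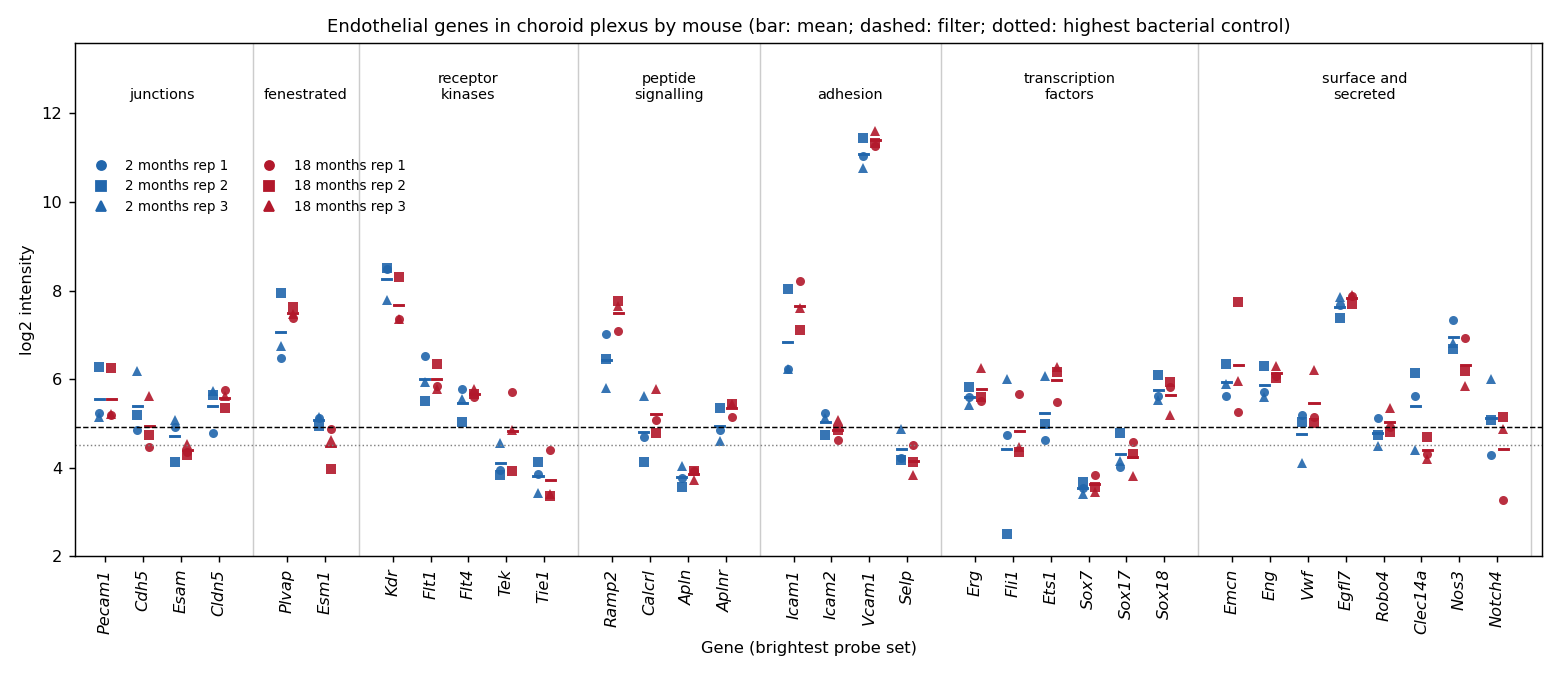
Log2 intensity (vertical axis) of the 33 endothelial genes with a probe set, grouped by role (horizontal axis), with a point for each mouse and a bar at the mean of each age (blue, 2 months; red, 18 months). The dashed line is the filter at 4.92 and the dotted line the highest bacterial control at 4.51. The points of both ages overlap for every gene above the filter except Ramp2.

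**Figure D2:**
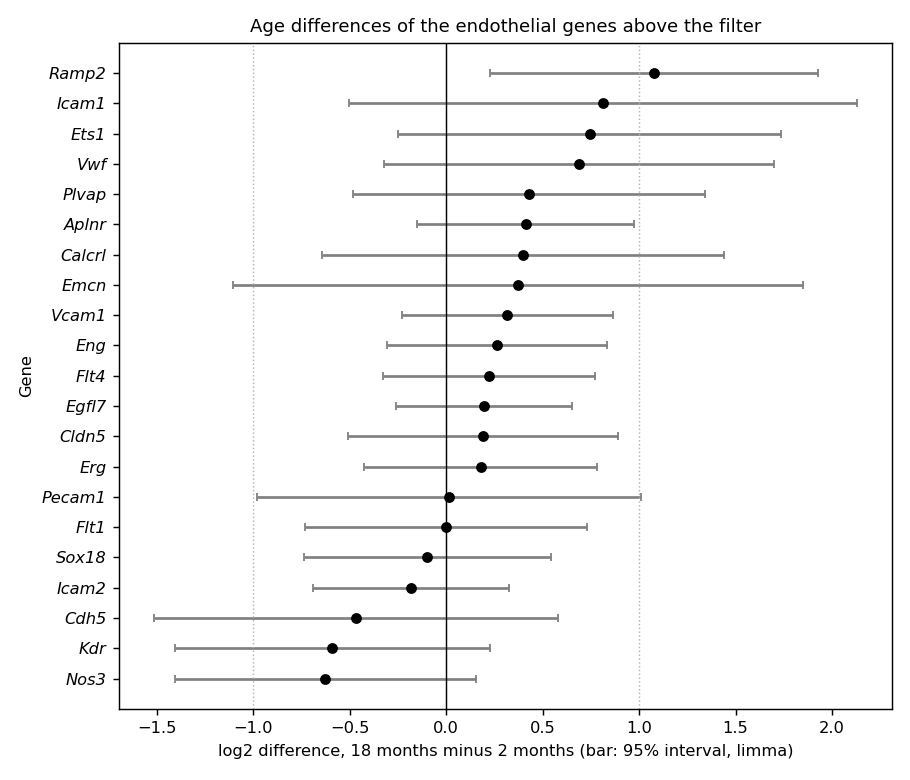
Log2 difference, 18 months minus 2 months (horizontal axis), for the 21 endothelial genes above the filter (vertical axis), with 95% confidence intervals from limma. The intervals hold 0 for 20 of the 21 genes, and the exception is Ramp2.

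The genes of fenestrated vessels were compared first. Plvap, which encodes the diaphragm protein, stood at log2 intensities of 7.38, 7.62 and 7.47 in the aged and 6.49, 7.94 and 6.76 in the young mice. The aged mice lay close together, between the lowest and the highest young mouse. The difference was 0.43 (SE 0.38, 95% interval -0.48 to 1.34, adjusted p = 0.852). With 1 mouse left out it ran from 0.14, without 2-month replicate 1, to 0.87, without 2-month replicate 2 (adjusted p = 0.968 and 0.590). Esm1, which encodes the secreted proteoglycan endocan of tip cells and activated endothelium, had 4.86, 3.98 and 4.62 in the aged against 5.12, 4.93 and 5.15 in the young mice. All aged mice lay below all young ones, by a mean difference of -0.58, but its overall mean was under the filter and its 18-month mean of 4.49 was under the highest bacterial control, so it was not tested in the fit across genes.

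Cldn5, the barrier gene, had 5.76, 5.35 and 5.62 in the aged and 4.78, 5.65 and 5.73 in the young mice. Only 2-month replicate 1 stood apart, and it was low. The difference was 0.19 (SE 0.29, 95% interval -0.51 to 0.89, adjusted p = 0.917), and -0.11 without that mouse.

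Of the adhesion genes, Icam1, which encodes the ligand of leukocyte integrins, had 8.21, 7.11 and 7.61 in the aged and 6.23, 8.04 and 6.23 in the young mice. All 3 aged mice exceeded 2-month replicates 1 and 3, whereas 2-month replicate 2 lay among them. The difference was 0.81 (SE 0.55, 95% interval -0.51 to 2.13, adjusted p = 0.816), or 1.76-fold. Without 2-month replicate 2 it was 1.42 (adjusted p = 0.606), whereas leaving out 2-month replicate 1 or 3 gave 0.51, and leaving out 18-month replicate 1 gave 0.53. Among the young mice, 2-month replicate 2 was also the highest for Plvap, Vcam1, Eng, Pecam1, Kdr, Aplnr, Erg, Sox18 and Emcn. It was the lowest of them for Calcrl, Egfl7, Flt1, Flt4, Icam2 and Nos3.

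Vcam1, the ligand of the integrin alpha-4 beta-1, had 11.27, 11.33 and 11.60 in the aged and 11.04, 11.45 and 10.76 in the young mice. The ages overlapped through the same young mouse, and the difference was 0.32 (SE 0.23, 95% interval -0.23 to 0.86, adjusted p = 0.823). Its 3 probe sets, all above the filter, gave differences of 0.02, 0.32 and 0.66. For the last of these the ages did not overlap, with 9.59, 9.16 and 9.17 in the aged against 8.52, 8.89 and 8.51 in the young mice (adjusted p = 0.697 among probe sets).

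Icam2, a constitutive endothelial adhesion gene, had 4.63, 4.85 and 5.06 in the aged and 5.23, 4.73 and 5.12 in the young mice, a difference of -0.18 (SE 0.21, 95% interval -0.69 to 0.33, adjusted p = 0.890). Selp, the gene of the P-selectin that endothelium and platelets store, had 4.50, 4.13 and 3.83 in the aged and 4.21, 4.18 and 4.88 in the young mice. It was not tested in the fit across genes, as its mean did not reach that of the highest bacterial control.

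To ask whether fenestrated and adhesion genes moved apart from the barrier gene, Cldn5 was subtracted from each on the same array. The within-array difference of Plvap from Cldn5 was 1.62, 2.27 and 1.86 in the aged and 1.70, 2.30 and 1.02 in the young mice. It changed by 0.24 between ages (exact permutation p = 0.7, two-sided). For Icam1 it changed by 0.62 (exact p = 0.4), for Vcam1 by 0.13 (exact p = 0.8) and for Icam2 by -0.37 (exact p = 0.6). Selp was among the 6 genes compared in this way, but as it lay at background its change is not read. Esm1 relative to Cldn5 was -0.90, -1.38 and -0.996 in the aged and 0.34, -0.71 and -0.58 in the young mice, with all aged mice below all young ones. That change was -0.77 (exact permutation p = 0.1, the smallest that 3 mice against 3 allow, and 0.6 after Benjamini-Hochberg adjustment over the 6 comparisons). With 1 mouse left out it ran from -0.97 to -0.44, the latter without 2-month replicate 1, the mouse with the lowest Cldn5. The adjusted values of Plvap, Icam1, Vcam1 and Icam2 were 0.8. The changes for Plvap and Vcam1 took the opposite sign without 2-month replicate 3, at -0.087 and -0.21, and that for Icam2 without 2-month replicate 1, at 0.031.

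**Figure D3:**
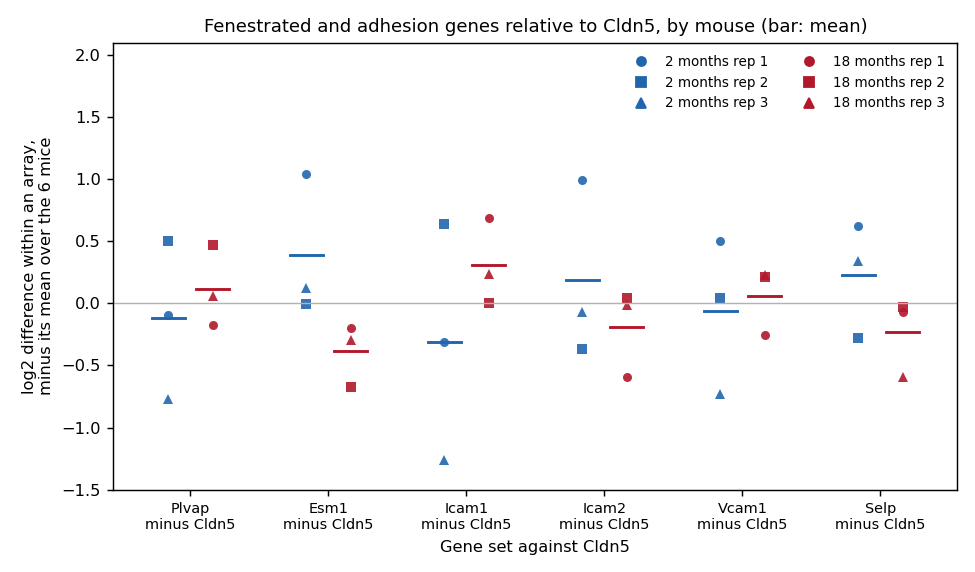
Within-array log2 difference of each gene from Cldn5, centred on its mean over the 6 mice (vertical axis), for 2 fenestrated and 4 adhesion genes (horizontal axis), with a point for each mouse and a bar at the mean of each age. Only for Esm1 are the ages apart, by -0.77, and the low signal of Esm1 limits that value. Selp lies under the highest bacterial control.

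The promoters of the compared genes are shown because they belong to the genes on which this contrast of vessel types rests. RefSeq windows (build GRCm38.p6) of 300 bases, from 250 before to 50 after the start, were found for Cldn5, Esm1, Icam1 and Selp, and for 19 of the 35 genes in all. Capitals mark GGAA on either strand (TTCC on the strand shown), the core bound by the ETS family of transcription factors, to which the products of the members Erg, Fli1 and Ets1 belong. All 4 lie on the plus strand and run 5′ to 3′, at chr16:18776597-18776896 for Cldn5, chr13:113209409-113209708 for Esm1, chr9:21015690-21015989 for Icam1 and chr1:164115014-164115313 for Selp.
Cldn5: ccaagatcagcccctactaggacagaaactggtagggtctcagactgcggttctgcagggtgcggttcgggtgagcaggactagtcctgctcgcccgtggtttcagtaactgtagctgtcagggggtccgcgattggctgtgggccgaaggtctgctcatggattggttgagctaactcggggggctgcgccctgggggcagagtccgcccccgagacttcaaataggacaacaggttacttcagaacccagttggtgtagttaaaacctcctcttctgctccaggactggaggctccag
Esm1: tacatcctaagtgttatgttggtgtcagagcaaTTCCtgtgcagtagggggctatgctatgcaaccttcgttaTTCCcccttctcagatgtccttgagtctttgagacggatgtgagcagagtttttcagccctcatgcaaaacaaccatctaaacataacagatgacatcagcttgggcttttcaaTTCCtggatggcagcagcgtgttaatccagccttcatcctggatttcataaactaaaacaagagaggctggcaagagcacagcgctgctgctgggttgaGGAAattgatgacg
Icam1: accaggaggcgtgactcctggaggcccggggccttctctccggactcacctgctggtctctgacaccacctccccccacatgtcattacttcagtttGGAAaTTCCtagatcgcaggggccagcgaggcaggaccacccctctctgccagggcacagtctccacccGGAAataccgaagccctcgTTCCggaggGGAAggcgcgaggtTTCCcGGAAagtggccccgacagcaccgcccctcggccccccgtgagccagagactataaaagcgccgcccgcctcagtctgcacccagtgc
Selp: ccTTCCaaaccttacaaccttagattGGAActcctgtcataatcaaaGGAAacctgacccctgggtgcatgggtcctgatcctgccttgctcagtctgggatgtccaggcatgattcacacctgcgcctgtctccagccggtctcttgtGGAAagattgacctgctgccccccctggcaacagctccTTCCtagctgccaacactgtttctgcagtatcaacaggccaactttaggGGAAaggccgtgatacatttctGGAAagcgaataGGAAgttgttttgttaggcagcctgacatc
The core occurred 0 times in the Cldn5 window, 4 times in that of Esm1, 7 times in that of Icam1 and 8 times in that of Selp. It is a short motif, present in 96.0% of all 32851 windows with a median of 3 matches, and in 23 of the 24 windows of these endothelial genes with a median of 4. ACAAT, a core of the SOX family that includes the products of Sox7, Sox17 and Sox18, occurred in 7 of the 24 windows and in 31.0% of all windows. These are matches of letters only, and the array measured no binding.

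Of the junction genes other than Cldn5, 0 passed the test. Pecam1, the adhesion molecule CD31 of endothelial contacts, had 5.19, 6.24 and 5.22 in the aged and 5.22, 6.26 and 5.13 in the young mice. In each age 1 mouse stood about as far above the others, and the difference was 0.013 (SE 0.42, 95% interval -0.98 to 1.01). Cdh5, which encodes VE-cadherin of adherens junctions, had 4.46, 4.73 and 5.61 in the aged and 4.84, 5.19 and 6.18 in the young mice, a difference of -0.47 (SE 0.44, 95% interval -1.51 to 0.58, adjusted p = 0.859). With 1 mouse left out it ran from -0.80, without 18-month replicate 3, to -0.079, without 2-month replicate 3. The other probe set of Cdh5, below the filter, went the other way, at 0.59. Esam, another junction molecule, was below the filter.

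Among the receptor kinase genes, Kdr, which encodes the main signalling receptor for VEGF-A, had 7.35, 8.30 and 7.36 in the aged and 8.49, 8.50 and 7.78 in the young mice. The aged mice were lower on average, with 18-month replicate 2 inside the young range, and the difference was -0.59 (SE 0.34, 95% interval -1.41 to 0.23, adjusted p = 0.779). Without that aged mouse it was -0.91 (adjusted p = 0.808). Flt1, the decoy-like VEGF receptor, gave -0.0011 (SE 0.31), and a dimmer probe set above the filter gave -0.69. Probe sets of Flt1 below the filter went the other way, at 0.85 and 0.97. Flt4, the receptor for VEGF-C, gave 0.22 (SE 0.23). Tek, the angiopoietin receptor Tie2, had 5.70, 3.92 and 4.85 in the aged and 3.93, 3.84 and 4.56 in the young mice, and its mean, like that of Tie1, lay under the highest bacterial control.

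The largest difference of a tested member belonged to Ramp2, which encodes the partner protein that turns the receptor encoded by Calcrl into a receptor for adrenomedullin, a vasodilator peptide. Ramp2 had log2 intensities of 7.08, 7.77 and 7.65 in the aged and 7.03, 6.45 and 5.79 in the young mice. All aged mice were above all young ones, with a gap of only a few hundredths between 18-month replicate 1 and 2-month replicate 1. The difference was 1.08 (SE 0.35, 95% interval 0.23 to 1.93), or 2.11-fold, with an unadjusted p of 0.0203 and an adjusted p of 0.660 over all genes. Leaving out 1 mouse at a time gave 0.76 to 1.38, with unadjusted p from 0.0063 to 0.066 and adjusted p from 0.653 to 0.872. The unadjusted p was above 0.05 without 18-month replicate 2, 18-month replicate 3 or 2-month replicate 3, and it was 0.122, at a difference of 0.69, without both arrays richest in neuron genes (replicate 3 of each age).

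Calcrl itself had 5.08, 4.77 and 5.78 in the aged and 4.69, 4.13 and 5.62 in the young mice. Replicate 3 was the highest mouse of each age and the ages overlapped. The difference was 0.40 (SE 0.44, 95% interval -0.65 to 1.44, adjusted p = 0.877). It was 0.057 without 2-month replicate 2 and 0.80 without 2-month replicate 3. Aplnr, the receptor for apelin, gave 0.41 (SE 0.23). Its difference was 0.62 without 2-month replicate 2 (adjusted p = 0.719), 0.25 without 2-month replicate 3 and 0.21 without both arrays richest in neuron genes. The other probe set of Aplnr, below the filter, went the other way, at -0.37. Apln, the ligand, was at background. Adm, the adrenomedullin gene and no member of the endothelial genes, had 8.71, 10.61 and 10.81 in the aged and 9.34, 6.01 and 7.97 in the young mice. Its ages overlapped through 18-month replicate 1 and 2-month replicate 1, and its difference was 2.27 (SE 0.93, 95% interval 0.053 to 4.49, adjusted p = 0.707).

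**Figure D4:**
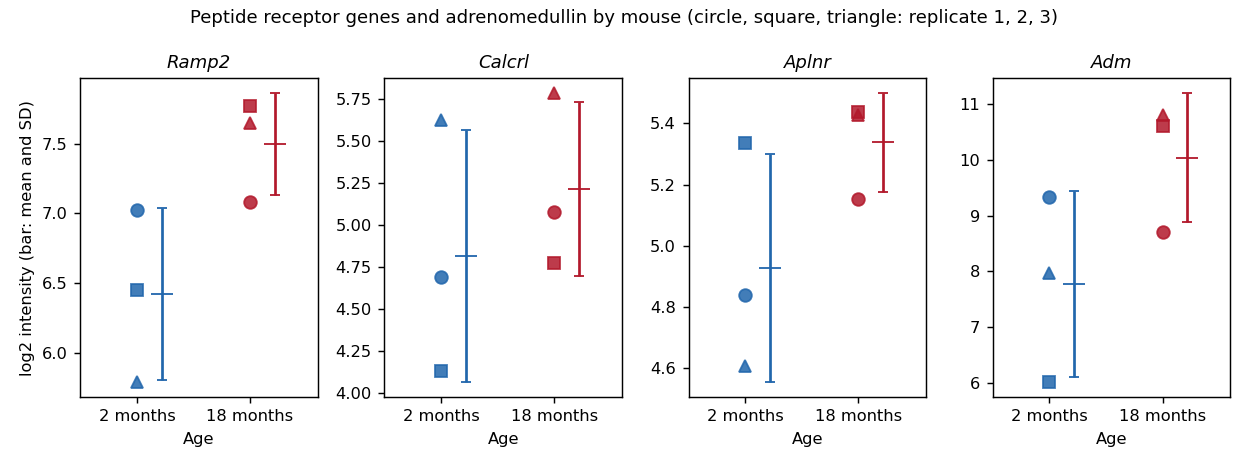
Log2 intensity (vertical axes, with separate scales) of the peptide receptor genes Ramp2, Calcrl and Aplnr and of Adm at both ages (horizontal axes), with a point for each mouse and the mean and SD of 3 mice. The ages are separate for Ramp2 alone, and the mice of 2 months spread from 6.01 to 9.34 for Adm.

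The transcription factor genes were mostly dim. Of 6, the ETS genes Erg and Ets1 and the SOX gene Sox18 were above the filter, with differences of 0.18 (SE 0.25), 0.74 (SE 0.42) and -0.10 (SE 0.27). Ets1 had 5.48, 6.15 and 6.28 in the aged and 4.63, 4.98 and 6.07 in the young mice, so that only 2-month replicate 3 lay within the aged range (adjusted p = 0.778). Without that mouse the difference was 1.16 (adjusted p = 0.637). Leaving out 2-month replicate 1 instead gave 0.44 (adjusted p = 0.896). The other probe sets of Ets1, all below the filter, gave 0.39, -0.36 and 0.0059, and that of Erg, also below it, gave -0.18. Fli1, Sox7 and Sox17 were below the filter, and Fli1 ranged from 2.50 to 6.01 among the young mice alone.

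Of 8 surface and secreted markers, 5 were tested. Nos3, the endothelial nitric oxide synthase that relaxes vessels, had 6.92, 6.18 and 5.84 in the aged and 7.33, 6.68 and 6.81 in the young mice. Among the aged mice 18-month replicate 1 lay within the young range, and the difference was -0.63 (SE 0.33, 95% interval -1.41 to 0.15, adjusted p = 0.766). Vwf, the clotting factor carrier stored by endothelium, gave 0.69 (SE 0.42), but -0.023 without both arrays that carried the most neuronal signal. Emcn, the sialomucin of capillaries and veins, gave 0.37 (SE 0.62), and the opposite sign, -0.34, without 18-month replicate 2, which stood at 7.73 where the other mice ran from 5.25 to 6.34.

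Egfl7, which encodes a secreted matrix protein of vessels, gave 0.19 (SE 0.19, 95% interval -0.26 to 0.65), with 4 probe sets above the filter between 0.11 and 0.25. This was the smallest SE of the 21 genes. Eng, a co-receptor for TGF-beta family ligands, gave 0.26 (SE 0.24) by its brightest probe set and 0.44 by the other. Robo4, Clec14a and Notch4 lay just below the filter, with means of 4.90, 4.89 and 4.77, and Icam2 passed just above it at 4.94. Clec14a, a lectin-like receptor of endothelium, had 4.31, 4.68 and 4.20 in the aged and 5.62, 6.14 and 4.39 in the young mice, with only 2-month replicate 3 in the aged range. Its other probe set, also below the filter, went the other way, with 5.51, 4.24 and 3.95 in the aged and 4.37, 3.37 and 4.82 in the young mice.

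The precision is limited by the number of mice. The SE of the 21 differences ran from 0.19 to 0.62. For 10 genes the 95% interval lay inside a 2-fold change in either direction. For 8 it reached past a 2-fold increase and for 4 past a 2-fold decrease, Emcn being in both groups.

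Other genes of vascular pathways were taken from a list of 49, of which 34 were tested. By limma 0 passed the adjusted threshold. An unadjusted p under 0.05 was reached by 2 that were higher and 1 that was lower, beside 4.02% and 3.03% of all genes. Ages were separate for 3 that were higher and 3 that were lower, beside 7.06% and 6.25% of all genes. The median difference was -0.082. The smallest p values belonged to Jag1, a Notch ligand, at 0.80 (SE 0.25, adjusted p = 0.636), Nrp2, a co-receptor for VEGF-C, at -0.56 (SE 0.20, adjusted p = 0.682), Adm and Vegfb, a VEGF family ligand, at 0.51 (SE 0.23, adjusted p = 0.722). Jag1 had 7.35, 6.75 and 7.43 in the aged and 6.54, 6.07 and 6.50 in the young mice, and Nrp2 had 6.54, 6.89 and 6.98 against 7.25, 7.26 and 7.58, each with separate ages. Vegfa, the ligand of Kdr and Flt1, gave -0.11 (SE 0.29).

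Genes of the barrier endothelium of the brain, such as the transporters Mfsd2a and Slco1a4, numbered 15 tested, with 0 called, 0 at an unadjusted p under 0.05 and a median of 0.10. Several of them, among them Slc2a1 and Slco1c1, are also expressed by plexus epithelium. Pericyte and smooth muscle genes numbered 9 tested, with 0 called, 0 at an unadjusted p under 0.05 and a median of -0.044. Of lymphatic markers, Lyve1 was at background in every mouse, at or under 4.20. Of the 3 tested by limma, 0 were called and 1, Prox1, had an unadjusted p under 0.05, beside 7.05% of all genes. Prox1, which neurons also express, gave 1.13 (SE 0.31, adjusted p = 0.583), from 4.61 ± 0.36 at 2 months to 5.73 ± 0.50 at 18 months (SD, n = 3 each). Its young mice, at 4.87, 4.20 and 4.75, all lay under the filter of 4.92, so that it was tested only through the aged mice. Pdpn gave 0.18 (SE 0.15) and Reln 0.57 (SE 0.49).

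The arrays differed in how much RNA of other cells they held. The mean log2 intensity of 10 neuron genes ran from 6.68 to 8.57 at 18 months and from 6.94 to 8.57 at 2 months, highest in replicate 3 of each age. That of 7 oligodendrocyte genes ran from 8.14 to 9.43 and from 7.70 to 9.18, that of 5 astrocyte genes from 7.56 to 8.57 and from 7.04 to 8.35, and that of 10 macrophage genes from 7.40 to 8.17 and from 7.24 to 7.67. That of the 21 endothelial genes ran from 6.24 to 6.47 at 18 months and from 6.11 to 6.33 at 2 months, and that of 8 plexus epithelial genes from 12.5 to 12.6 and from 12.4 to 12.6. With the neuron level as a covariate, the median difference of the endothelial genes was 0.23, 0 passed and 2 had an unadjusted p under 0.05. Without both arrays richest in neuron genes the median was 0.075. The part of macrophages, astrocytes and oligodendrocytes in these differences was not tested.

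**Figure D5:**
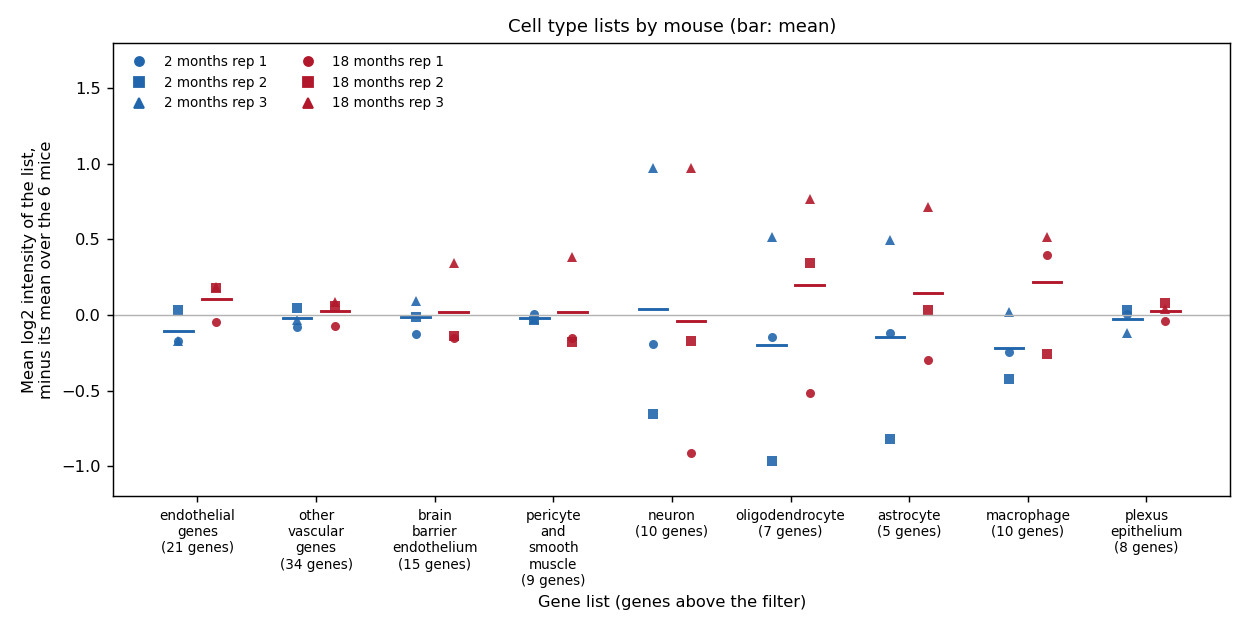
Mean log2 intensity of each list, centred on its mean over the 6 mice (vertical axis), for the endothelial genes and lists of other cell types (horizontal axis), with a point for each mouse and a bar at the mean of each age. Replicate 3 of each age is highest for neuron genes, at 8.57 for both before centring, and the endothelial genes of both ages overlap.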

How the data were processed

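RNA was extracted with the miRNeasy kit and amplified with a Nugen Pico kit, per the labels' protocols, and hybridised to 6 arrays from 6 mice. The authors deposited 1 table of intensity values, made with RMA per the submitters' processing notes (version not given in the sources used here). RMA corrects background, normalizes between arrays and summarises each probe set. The deposited values ran from 2.47 to 26821 and were therefore linear, and their log2 was taken. Amplification of small inputs can distort dim transcripts, and intensities of different probe sets are not compared as abundance.

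GEO's annotation of the platform supplied gene names: of 45037 non-control probe sets, 34945 carried 1 gene symbol, 932 several and 9160 none. The brightest probe set stood for a gene, and genes under the 40th percentile were not tested. Dimmer probe sets below the filter are given for some genes only. Ages were compared with limma 3.58.1 in R 4.3.3 (lmFit and eBayes, no covariates, two-sided), adjusted by Benjamini-Hochberg over 12681 genes, with 6.61 degrees of freedom. The fit was also run on simulated data with known changes, built from the means and spreads of these same arrays. Differences from Cldn5 were compared by exact permutation over mice (SciPy 1.17.1). The labels call the samples biological replicates. Values in every mouse are given for the compared fenestrated, barrier and adhesion genes, for Pecam1, Cdh5, Kdr and Tek, and for each other member with separate ages or an unadjusted p under 0.05; others so described were chosen after their values were seen. Of the other vascular genes tested, the 4 with the smallest p are named. Some other genes named from the lists, such as Mfsd2a, Slco1a4, Vegfa and Lyve1, were not chosen by p. The members and lists were chosen with earlier results of these data known. Alternatives were other filters (none, 60th percentile), the mean of all probe sets, quantile normalization, median centring, leaving out each mouse, a replicate block, array weights, a neuron covariate and an ordinary linear model.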

Additional observations from a re-analysis of the deposited data

How the results depend on the processing

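In each of 16 alternatives 0 endothelial genes passed an adjusted p of 0.05, the lowest adjusted p being 0.562. Of 21 single-gene differences, 14 kept their sign in every alternative in which the gene passed the filter. With the mean of all probe sets only 15 members passed it. Aplnr, Calcrl, Cdh5, Erg, Ets1 and Flt4 were not among them, so that their signs were not judged there. All of these but Calcrl had probe sets that differed in sign. The values were -0.47 and 0.59 for Cdh5, 0.41 and -0.37 for Aplnr and 0.18 and -0.18 for Erg. They were 0.22 and -0.0013 for Flt4, and ran from 0.74 to -0.36 for Ets1. The number at an unadjusted p under 0.05, 1 in the analysis reported (Ramp2), was 2 with the neuron covariate (Ets1 and Ramp2), 0 with the ordinary linear model and 0 to 4 when 1 mouse was left out. It was 4 without 2-month replicate 2 (Aplnr, Icam1, Plvap and Ramp2), 2 without 18-month replicate 1 (Nos3 and Ramp2) and 0 without 18-month replicate 3. The 1 gene was Kdr in place of Ramp2 without 18-month replicate 2, and Ets1 in place of Ramp2 without 2-month replicate 3 or without both arrays richest in neuron genes. Replicate numbers are shared by both ages, but same-numbered mice correlated at -0.015, 0.019 and 0.17 in their deviations from the age means, and not every mouse correlated best with its own number, so the numbers were not taken as pairs. With a replicate block the count at an unadjusted p under 0.05 was 3 (Ets1, Nos3 and Ramp2), 0 passed the adjusted threshold and no other call changed.

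The median difference of 0.22 ran from 0.17 to 0.32 when 1 mouse was left out and was 0.075 without both arrays richest in neuron genes, an alternative chosen after seeing the data. The latter also turned the sign of Erg (-0.15), Flt1 (0.075), Pecam1 (-0.023), Sox18 (0.024), Vwf (-0.023) and, relative to Cldn5, Plvap (-0.058) and Vcam1 (-0.29). The mean of all probe sets turned Flt1 (0.28). Median centring (-0.0013), quantile normalization (-0.0030) and the neuron covariate (-0.0098) turned Pecam1, whose difference was near 0. With 1 mouse left out, ranges that crossed 0 were -0.11 to 0.36 for Cldn5, -0.34 to 0.91 for Emcn, -0.056 to 0.32 for Erg, -0.24 to 0.27 for Flt1, -0.33 to 0.37 for Pecam1 and -0.24 to 0.13 for Sox18. Relative to Cldn5 they were -0.65 to 0.031 for Icam2, -0.087 to 0.55 for Plvap and -0.21 to 0.41 for Vcam1. The cause was not tested. The signal over background limits the 12 members under the filter.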

Other observations

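Some of the 15 other vascular genes below the filter, which were not tested and were picked after their values were seen, also had separate ages. Of all genes above the filter, 13.3% had separate ages, and the share below it was not counted. Gpihbp1, which encodes the capillary anchor of lipoprotein lipase, had log2 intensities of 5.53, 5.26 and 5.19 in the aged and 4.48, 3.99 and 3.54 in the young mice, and the young mice lay at or under the highest bacterial control with the aged mice above it. Acvrl1, the receptor ALK1 for BMP9 in endothelium, had 5.22, 4.71 and 5.25 against 4.68, 4.31 and 3.91. Vegfd, a VEGF family ligand, had 4.58, 5.34 and 4.73 against 4.36, 3.41 and 4.26, with a mean over the 6 mice of 4.45, under the highest bacterial control. Gja4, a connexin gene of arterial endothelium, went the other way, with 4.31, 4.17 and 4.60 in the aged and 4.65, 5.17 and 4.87 in the young mice. Rasip1 was also lower at 18 months, by a mean difference of -0.29, and Gja5 higher, by 0.22, but both lay under the highest bacterial control in every mouse.

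Over the 21 endothelial genes tested, the mouse with the lowest value was most often 2-month replicate 3, for 8 genes, and the mouse with the highest was most often 18-month replicate 3, for 6 genes. Both were also the mice with the most neuronal signal at their age, with a mean neuron level of 8.57 in each, and a link was not tested. How often each mouse was highest or lowest over all genes was not counted. Of 5 platelet genes tested, 0 were called and 5 gave differences above 0, beside 50.4% of all genes. Ppbp, a platelet chemokine gene, gave 0.93 (SE 0.33, adjusted p = 0.682). Of the red cell genes tested, Alas2 gave 0.24 (SE 0.37) and Slc4a1 -0.03 (SE 0.86), and their mean level was highest in 2-month replicate 3, at 8.29, with overlapping ages.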
